A study of Gallus gallus with 40 samples.

Results

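The genes described here encode the proteasome and the enzymes that attach or remove ubiquitin, in livers of juvenile broiler chickens. They are the genes whose symbol in the array's annotation begins with PSMA to PSMG and a digit, with UBE2 or UBE3, or with USP or UBA and a digit. This rule took 80 of the 6428 named genes on the array, 34 of the proteasome and 46 of the ubiquitin enzymes. It also took USP6NL, which shares the letters but is known in mammals as a GTPase-activating protein for Rab proteins and not as a deubiquitinase. Each array compared liver RNA of the high growth (HG) line with liver RNA of the low growth (LG) line at the same age, 1, 3, 5, 7, 9 or 11 weeks. HG birds came from a line selected for high body weight and LG birds from a line selected for low body weight, with selection at 8 and 32 weeks of age, and both were raised on a standard broiler protocol. The labels give neither sex nor a treatment beyond the selection. A log2 ratio below is HG over LG.

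Ubiquitin is a small protein that an E1 enzyme activates, an E2 enzyme carries and an E3 ligase places on a target protein, while deubiquitinases take it off. Chains of ubiquitin mark a protein for the 26S proteasome, in which a 19S regulator binds and unfolds the protein and a barrel-shaped 20S core cuts it. The roles named below are those known from mammals and yeast. In liver this system removes misfolded and short-lived proteins, among them enzymes of lipid metabolism and membrane proteins of the endoplasmic reticulum.

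The array was a spotted cDNA array read with a pair of dyes, and HG carried Alexa Fluor 647 on some arrays and Alexa Fluor 555 on the others. Of 40 arrays, 38 were used: 12 at 1 week, 10 at 3 weeks and 4 at each later age. Replicates 3 and 4 at 3 weeks held the same values (Pearson's r = 0.99988 over 9261 probes, with 99.5% of them within 0.005 on the log2 scale) although their labels give HG opposite dyes, so both were left out. A value was present for 7291 to 13434 of 19200 spots per array, and the number of arrays limits the precision. The dye in the numerator of the deposited ratio is not given in the sources used here. It was read as 647 over 555, so a positive value is likely higher in HG, because the design text calls 647 red. With 555 in the numerator every sign would turn. If the authors had themselves turned the ratios to HG over LG before deposit, the dye effects given near the end would be the line differences. Array pairs of the same age and opposite dye orientation had a median correlation, after turning, between -0.426 and -0.0762 in the 6 ages, and pairs of the same orientation one between 0.165 and 0.633. Before turning, the correlations of opposite pairs have the other sign, so the deposited ratios resembled each other whichever line carried 647. The spread was pooled over ages (median residual SD 0.245 over all probes), whereas separate fits per age gave 0.356 at 7 weeks and 0.266 at 5 weeks, against 0.123 to 0.145 at the other ages. The separate fits also took off a dye effect for each age, so the fits differ in more than the spread. Against the separate fits, p-values of the pooled fit are too small at 7 weeks and, less so, at 5 weeks. They are too large at the other ages. At 1 and 3 weeks some birds were used again and each array counted once, which can make p-values there too small. Of the 10 hepatocyte markers listed, 9 were tested, and SERPINC1 was not on the array. In whole liver, fewer cells of a type and less RNA per cell cannot be told apart.

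Of the 80 genes, 43 had a probe valued on 75% or more of the arrays at each of the 6 ages and were tested, with 57 probes. These were 22 proteasome genes (25 probes) and 21 ubiquitin enzyme genes (32 probes). The filter kept 12 of 15 genes of the 19S regulator, 5 of 13 of the 20S core and 5 of 6 activators, inhibitors and assembly factors. It kept 8 of 15 E2 genes and 13 of 28 genes with a USP symbol. The E1 genes UBA3 and UBA6 and the E3 gene UBE3C were not tested. A gene's value is the mean of its tested probes, and it counts as different between the lines where at least 1 probe had an adjusted p under 0.05 in limma, with Benjamini-Hochberg adjustment over all 6432 probes tested.

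On the reading of the ratios used here, few of the tested proteasome and ubiquitin enzyme genes passed the threshold between HG and LG livers. The same held for all named genes. The 37 genes without a tested probe are not covered, and at single ages wider differences stay possible. Of the 43 genes, 1 passed as the mean over the 6 ages, beside 4.37% of the 3181 named genes tested. It was PSMD2, a scaffold subunit of the 19S regulator. Its 1 tested probe, of 3 on the array, was 1.15-fold higher in HG. UBE2D3 passed at a single age, 7 weeks, through 1 of its 3 tested probes, where 2.92% of named genes passed. Neither call held with the spots of the symbol averaged before the fit. At 1 and 3 weeks the most distant gene was PSMD2 at both ages, with log2 ratios of 0.15 and 0.17. From 5 weeks on the genes scattered more widely, from -0.42 for PSME3 at 5 weeks to 0.38 for PSMD2 at 7 weeks.

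At 1 and 3 weeks limma called 0 of the 43 genes, where 0.0% of the 3181 named genes tested were called at either age, and 0 of the 57 probes had an unadjusted p under 0.05, beside 1.34% and 0.42% of all probes at 1 and 3 weeks. Against separate fits these p-values are too large, while birds used again can make them too small. So 0 calls do not show an absence of difference. At 5 weeks limma again called 0, against 0.566% of named genes, with 1 of 25 proteasome probes and 1 of 32 ubiquitin enzyme probes at an unadjusted p under 0.05 (8.85% of all probes). UBE2D3 was the 1 gene called at 7 weeks, against 2.92% of named genes, with 2 proteasome and 2 ubiquitin enzyme probes at an unadjusted p under 0.05 (11.7% of all probes). At 9 weeks 0 genes were called, against 0.786%, although 5 proteasome and 3 ubiquitin enzyme probes had an unadjusted p under 0.05 (11.4% of all probes). At 11 weeks 0 were called, against 0.472%, with 1 proteasome and 3 ubiquitin enzyme probes at an unadjusted p under 0.05 (4.17% of all probes). As the mean over the ages 1 gene was called, against 4.37% of named genes. Members at an unadjusted p under 0.05 in the mean were 3 of 25 proteasome probes (12.0%) and 4 of 32 ubiquitin enzyme probes (12.5%), beside 14.8% of all probes. By the unadjusted p, the share of proteasome probes was above that of all probes at 9 weeks (20.0% against 11.4%) and the share of ubiquitin enzyme probes at 11 weeks (9.38% against 4.17%). At 5 and 7 weeks and as the mean both families were below the share of all probes. The heat map of fitted ratios shows the same genes by role.

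**Figure D1:**
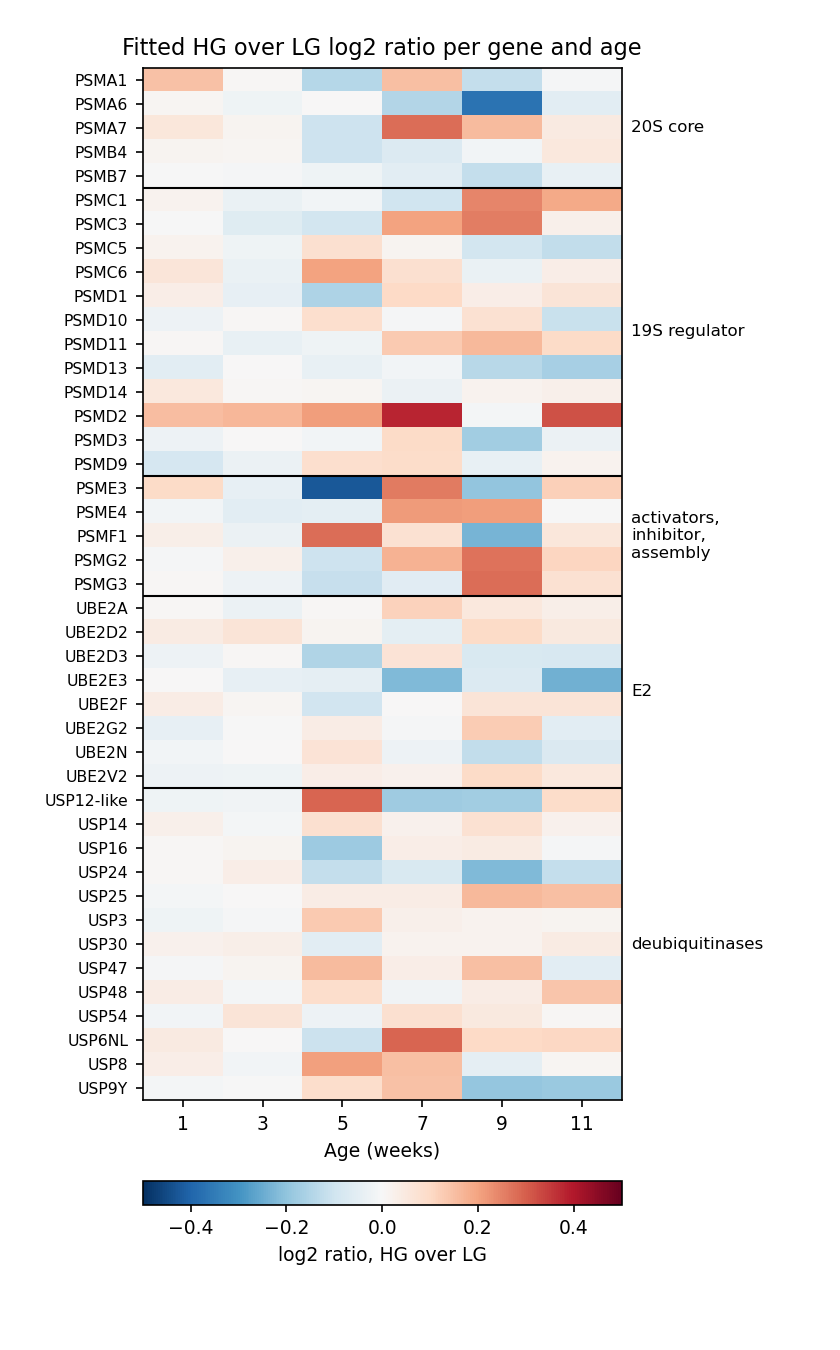
Fitted log2 ratio of HG over LG (colour, red higher in HG) for the 43 tested genes, in rows grouped by role, at the 6 ages in weeks, in columns. The columns at 1 and 3 weeks are pale throughout, with PSMD2 the most distant at 0.15 and 0.17, and the deepest colours stand at 5 to 11 weeks, with PSME3 at -0.42 at 5 weeks and PSMD2 at 0.38 at 7 weeks.

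The 20S core is built of alpha subunits, which form its outer rings and gate, and beta subunits, which hold the cutting sites. PSMA1, PSMA6 and PSMA7 (alpha) and PSMB4 and PSMB7 (beta) were tested, and none passed the threshold in any comparison. Their median log2 ratio lay between -0.12 at 9 weeks and 0.012 at 1 week. At 5 weeks 5 of 5 were at or below 0, with a median of -0.10, beside 1424 of 3181 named genes below 0. PSMA6 lay at 0 there, with 2 of 4 arrays above 0. Arrays above 0 were 2 of 3 for PSMA1 and 1 of 4 each for PSMA7 and PSMB4. The 2 PSMB7 probes had opposite signs at that age (-0.13 and 0.084). PSMA6 had the smallest p of the core at 9 weeks. Its log2 ratios there were -0.07, -0.66, -0.08 and -0.67 in the 4 arrays, here and below with the fitted dye effect of the probe subtracted from each array. All 4 arrays lay below 0, but they split by dye, the lower ones being those with HG on 647. The fitted difference was -0.37 ± 0.149 (SE), with limma's adjusted p = 0.346. PSMA7 at 7 weeks had log2 ratios of -0.45, 0.33, 0.85 and 0.38. One array, replicate 1, lay apart from the 3 positive ones. The fitted value was 0.28 ± 0.137 (SE; limma's adjusted p = 0.43). Without replicate 1 it was 0.53 and passed (limma's adjusted p = 0.0163), in a fit that called 6.0% of named genes at that age and 8.65% as the mean.

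The 19S regulator has a base with ATPase subunits (the PSMC genes) and scaffold subunits (PSMD1 and PSMD2), and a lid (among others PSMD3, PSMD11, PSMD13 and PSMD14, of which PSMD14 cuts ubiquitin off the incoming protein). PSMD9 and PSMD10 are chaperones of its assembly. Among the 12 genes tested, 9 had a mean log2 ratio above 0, from -0.07 for PSMD13 to 0.20 for PSMD2, with a median of 0.011. All named genes had a median of 0.023. The ATPase genes had mean ratios of 0.051 for PSMC1, 0.055 for PSMC3, -0.021 for PSMC5 and 0.052 for PSMC6. PSMD14, with a mean of 0.014, varied least over the ages of all 22 proteasome genes, within a range of 0.083. That value averages 2 probes, which had opposite signs at 5 weeks (-0.063 and 0.079) and at 9 weeks (-0.066 and 0.10).

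PSMD2 is known as the docking site on the proteasome for ubiquitin-binding shuttle proteins and for USP14. It was the single proteasome gene called as the mean over the ages. At 1 week its log2 ratios ran from -0.07 to 0.38 with a median of 0.18 in 10 arrays, and 8 of the 10 were above 0. At 3 weeks they ran from -0.13 to 0.46 with a median of 0.12 in 9 arrays, of which 8 were above 0.

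At 5 weeks PSMD2 had log2 ratios of 0.46, 0.15, 0.10 and 0.12, all above 0. At 7 weeks it had 0.59, -0.54, 0.79 and 0.69, so that replicate 2 was the only array below 0. At 9 weeks the arrays lay around 0, with 0.24, -0.030, -0.0018 and -0.24. At 11 weeks they were 0.43, -0.26, 0.55 and 0.55, again with replicate 2 alone below 0. In total 27 of 35 arrays were above 0.

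The fitted log2 ratios of PSMD2 were 0.15, 0.17, 0.21, 0.38, -0.009 and 0.32 at 1, 3, 5, 7, 9 and 11 weeks. Its mean over the ages was 0.20 ± 0.0507 (SE; 95% interval 0.10 to 0.31; limma's adjusted p = 0.013). At no single age did it pass, with limma's adjusted p = 0.172 at 7 weeks. The F test did not show unequal differences between ages (limma's adjusted p = 1.0). Before turning, the deposited ratio was above 1 on 10 of 18 arrays with HG on 647 and on 1 of 17 with HG on 555. Without each array in turn the mean stayed between 0.18 and 0.26, with limma's adjusted p between 3.42e-05 and 0.0364. Leaving out single arrays does not account for birds used again at 1 and 3 weeks. In a fit that took arrays of the same replicate number as correlated (a replicate block), the mean of PSMD2 did not pass. That number does not mark shared birds between ages. Without replicate 2 at 7 weeks, the only array below 0 there, PSMD2 also passed at that age. The share of named genes that passed in that fit is not given here.

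The array carried a further pair of probes for PSMD2 that had too few values to be tested. One had a median turned log2 ratio of 0.0087 in 31 arrays, 17 of them above 0, and the other had 0.033 in 8 arrays, 4 of them above 0. Both medians were close to 0. With the spots of the symbol averaged before the fit, PSMD2's mean was 0.091 and did not pass (limma's adjusted p = 0.138). The call thus rests on 1 of the gene's 3 probes.

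**Figure D2:**
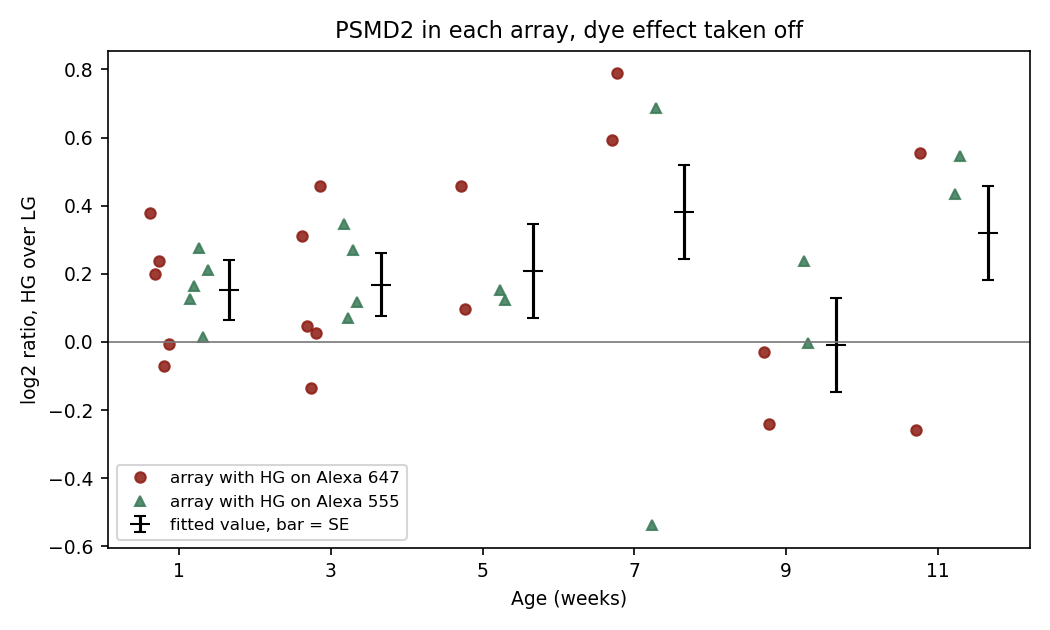
Log2 ratio of HG over LG for the tested PSMD2 probe (vertical axis) at the 6 ages in weeks (horizontal axis), 1 point per array, circles with HG on Alexa 647 and triangles with HG on Alexa 555, and the fitted value with its SE as a black bar. Most points lie above 0 at 1, 3, 5, 7 and 11 weeks, the 4 arrays at 9 weeks lie around 0, and replicate 2 at 7 weeks is the lowest at -0.54.

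PSMD11, a lid subunit, had the next smallest p of the regulator, in the comparison of 5 to 11 weeks with 1 and 3 weeks. Its log2 ratios were 0.21, 0.13, 0.23 and -0.034 at 7 weeks. At 9 weeks they were 0.038, 0.091, 0.076 and 0.44, and at 11 weeks 0.086, 0.14, 0.10 and 0.060. All 8 arrays of the last 2 ages were above 0, by little except in 1 array at 9 weeks. The later ages exceeded the early ones by 0.11 ± 0.0466 (SE), which did not pass (limma's adjusted p = 0.519).

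Other proteins open the ends of the core, block it or help to build it. PSME3 and PSME4 encode activators, PSMF1 an inhibitor, and PSMG2 and PSMG3 assembly chaperones. None of these 5 passed the threshold in any comparison. The activator PSME3 was at -0.42 and the inhibitor PSMF1 at 0.28 at 5 weeks, the ends of the range of all proteasome genes at that age. At 7 weeks PSME3 was at 0.26.

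PSMG3 at 9 weeks had log2 ratios of 0.06, 0.21, 0.28 and 0.56. The 4 arrays were above 0 and spread widely. The fitted value was 0.28 ± 0.0964 (SE; limma's adjusted p = 0.261). PSME4 had 0.06, 0.24, 0.37 and 0.19 at 7 weeks and 0.10, 0.15, 0.17 and 0.40 at 9 weeks. Thus 8 of 8 arrays at these ages were above 0, while at 11 weeks 1 of 4 was. Its fitted values were 0.21 at 7 and 9 weeks, each ± 0.0797 (SE), with limma's adjusted p = 0.188 and 0.307.

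E2 enzymes receive ubiquitin or a ubiquitin-like protein and pass it on. UBE2D2 and UBE2D3 serve many ligases, UBE2G2 acts in degradation from the endoplasmic reticulum, and UBE2F carries the ubiquitin-like NEDD8. UBE2N forms chains that are mostly not degradation signals, together with UBE2V2, which lacks the active cysteine. Of the 8 E2 genes tested, UBE2D3 alone had a probe past the threshold.

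UBE2D3 had 3 tested probes that did not move together. The first probe at 7 weeks had log2 ratios of 0.10, 0.25, 0.31 and 0.38, and the 4 arrays were above 0. Its fitted difference was 0.26 ± 0.0721 (SE; 95% interval 0.11 to 0.41; limma's adjusted p = 0.0351), a 1.2-fold higher level in HG. At the other ages this probe lay between -0.08 and 0.11. The second probe had a fitted value of 0.027 ± 0.145 at 7 weeks (SE; limma's adjusted p = 0.979), with arrays from -0.89 to 0.79. The third probe had -0.08 ± 0.177 at 7 weeks (SE; limma's adjusted p = 0.956), and -0.55 at 5 weeks, where its 4 arrays ran from -1.13 to 0.57. Averaged over probes, UBE2D3 at 7 weeks was 0.068 (limma's adjusted p = 0.87). The call of the first probe was lost without replicate 2, 3 or 4 at 7 weeks (limma's adjusted p = 0.0655, 0.157 and 0.166), with the arrays centred on their medians (limma's adjusted p = 0.0745) and in a fit of each age alone (limma's adjusted p = 1.0). In that week the 3 erythroid markers on the array, of 11 listed, ran from -0.019 (CA2) to 0.86 (HBBA), with a median of 0.33. The 9 hepatocyte markers ran from -1.35 (TTR) to 1.35 (FGB), with a median of 0.0024. Of the 5 leukocyte markers tested 4 were above 0, with a median of 0.099. Of the 7 matrix and vessel markers tested 3 were above 0, with a median of -0.019. The part of these cell types in the result was not tested.

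**Figure D3:**
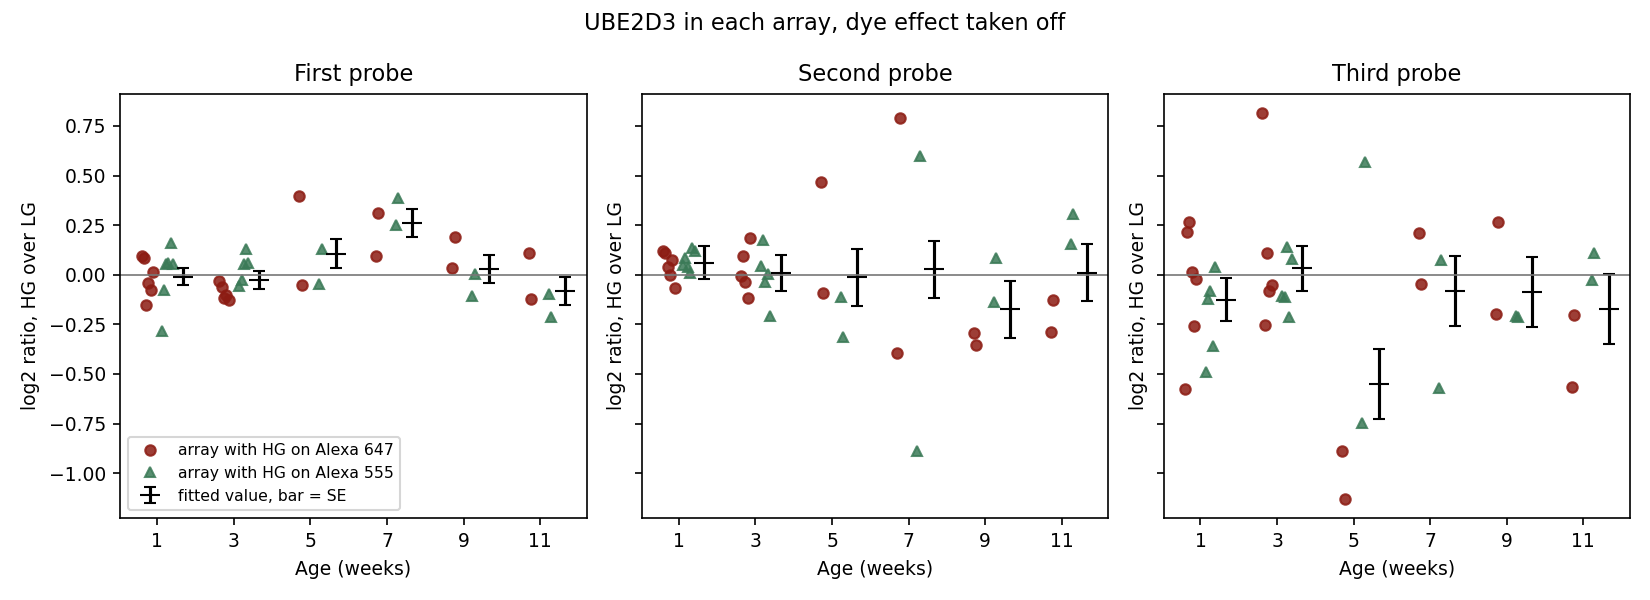
Log2 ratio of HG over LG (vertical axis) for the 3 tested probes of UBE2D3, 1 panel each, at the 6 ages in weeks (horizontal axis), with circles for arrays with HG on Alexa 647, triangles for HG on Alexa 555 and the fitted value with its SE in black. The first probe is above 0 in all 4 arrays at 7 weeks, from 0.10 to 0.38, where the second runs from -0.89 to 0.79 and the third from -0.57 to 0.21.

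UBE2E3 had the lowest mean over the ages of the ubiquitin enzyme genes. At 11 weeks its log2 ratios were -0.09, -0.35, -0.19 and -0.33, all below 0. At 7 weeks they were 0.19, -0.26, -0.47 and -0.34, with replicate 1 alone above 0. In all, 11 of 34 arrays were above 0. Its mean was -0.10 ± 0.035 (SE; 95% interval -0.17 to -0.03), which did not pass (limma's adjusted p = 0.108). Without replicate 4 at 5 weeks or replicate 1 at 7 weeks it was -0.13 and passed (limma's adjusted p = 0.0101 and 0.0131). Each array left out had the highest value of its age. Those fits called 10.8% and 8.65% of named genes as the mean, against 4.37% with all arrays used. The other E2 genes had mean ratios between -0.044 (UBE2D3, over its 3 probes) and 0.036 (UBE2D2).

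Deubiquitinases of the USP family cut ubiquitin from proteins. USP14 acts on the proteasome itself, USP30 sits on mitochondria, USP8 acts on endosomes and USP16 and USP3 act on histones. Of the 13 genes tested with a USP symbol, none passed the threshold in any comparison. Their mean log2 ratios lay between -0.08 for USP24 and 0.07 for USP6NL, with 9 of 13 above 0 and a median of 0.027, beside 0.023 for all named genes.

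USP16 had 3 tested probes. The first at 9 weeks had log2 ratios of 0.46, 0.21, 0.33 and 0.84, all above 0, and the fitted value was 0.46 ± 0.151 (SE; limma's adjusted p = 0.208). The other two had -0.18 and -0.16 at that age, so the probes had opposite signs. USP9Y, as the annotation names this chicken gene, had -0.05, -0.30, -0.32 and -0.10 at 9 weeks and -0.14, -0.20, -0.0001 and -0.40 at 11 weeks. All 8 arrays were below 0. The fitted value was -0.19 ± 0.0792 (SE) at 9 weeks, with limma's adjusted p = 0.346. At 7 weeks USP9Y was at 0.15 with 3 of 4 arrays above 0. These values come from its 1 tested probe. A further USP9Y probe, not tested, had 30 values over the ages, 16 of them above 0. Its median turned log2 ratio was 0.064, with the dye effect not taken off. The proteasome-bound USP14 stayed between -0.011 and 0.081 at all ages, as the mean of its 3 probes. The probes themselves differed, from -0.041 to 0.22 at 5 weeks and from -0.088 to 0.36 at 9 weeks, with opposite signs at both ages.

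The 95% intervals give the size of difference that the fit leaves possible. As the mean over the ages, those of the 25 proteasome probes lay between -0.21 and 0.31, and of the 32 ubiquitin enzyme probes between -0.30 and 0.29. No interval of the mean therefore reached a difference of more than 1.24-fold. At 1 and 3 weeks the furthest bound of any member was 1.32-fold. At 5 weeks intervals reached 1.88-fold (UBE2D3), at 7 weeks 1.84-fold (USP6NL) and at 9 weeks 1.81-fold (USP14), since 4 arrays gave a median SE of 0.109 to 0.13 in these groups against 0.0655 to 0.0803 at 1 and 3 weeks. These intervals use the spread pooled over ages. Against separate fits they are too narrow at 7 and 5 weeks, where the residual SD was larger, and too wide at the other single ages. Birds used again at 1 and 3 weeks can make the intervals there too narrow, and the net effect was not tested. They hold for the reading of the ratios used here.

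**Figure D4:**
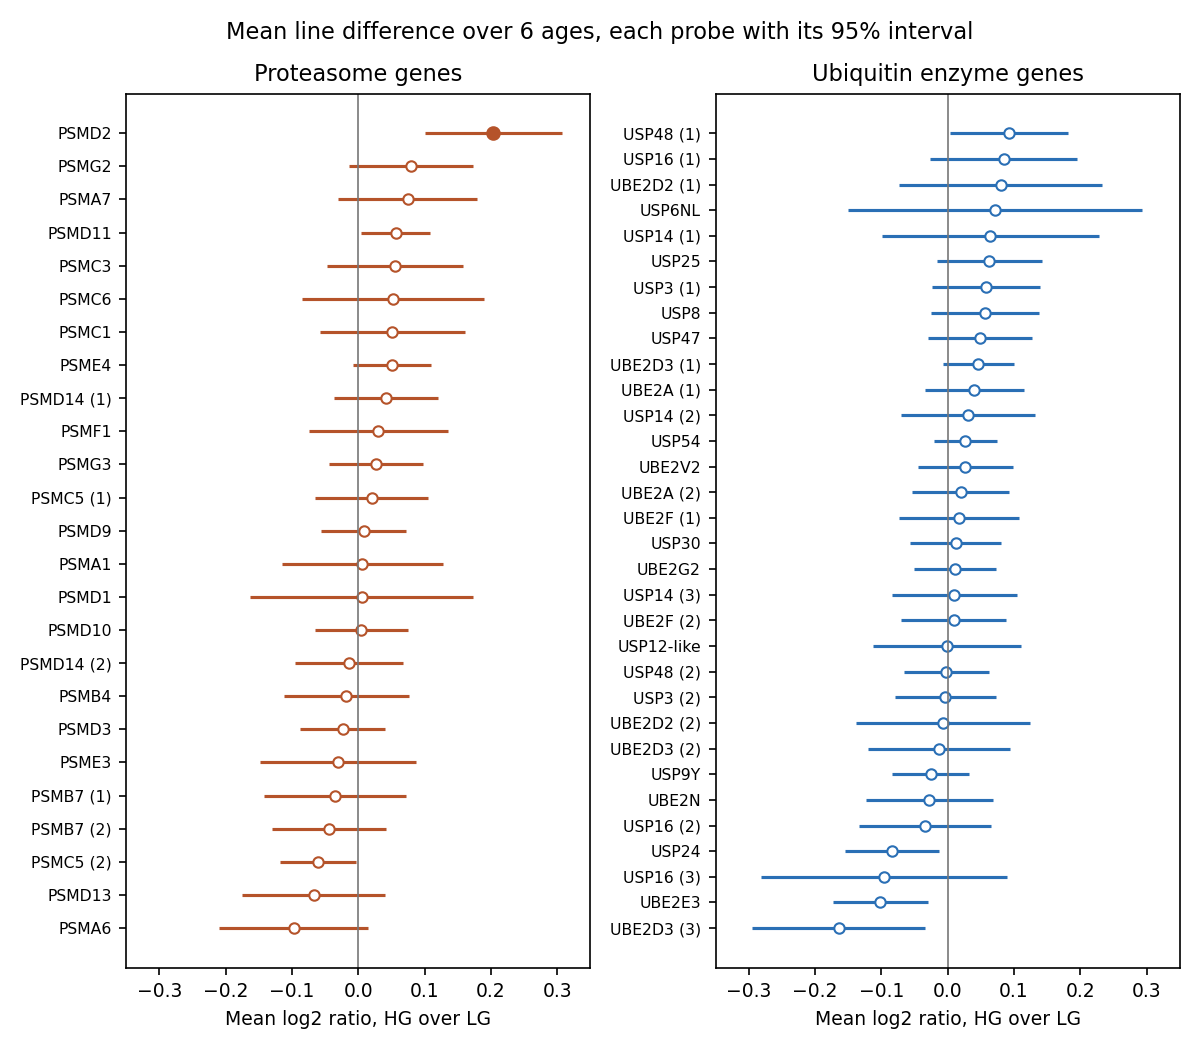
Mean log2 ratio of HG over LG over the 6 ages (horizontal axis) for each tested probe, with its 95% interval, proteasome genes on the left and ubiquitin enzyme genes on the right, ordered by value. A number after a symbol tells probes of the same gene apart, and the filled point, PSMD2 at 0.20, is the single probe past the threshold.

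The families as wholes stayed close to 0. The median fitted log2 ratio of the 22 proteasome genes was 0.011, -0.022, -0.022, 0.087, -0.012 and 0.029 in the order of the 6 ages. All named genes had medians of 0.0056, -0.0065, 0.014, 0.035, 0.044 and 0.021 at these ages. The 21 ubiquitin enzyme genes had 0.0039, 0.0015, 0.034, 0.022, 0.042 and 0.013. At 7 weeks 14 of 22 proteasome genes were above 0, beside 1957 of 3181 named genes. The proteasome median of each array at 7 weeks lay between 0.0082 and 0.15, above 0 in 4 of 4 arrays. The ubiquitin enzyme median was above 0 in 3 of 4 and that of all named genes in 2 of 4. At 9 weeks the proteasome median of each array was also above 0 in 4 of 4, between 0.0042 and 0.071, although the median of the fitted ratios was -0.012.

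Replicate 4 at 5 weeks had the lowest medians of any array for both families, -0.30 for the proteasome and -0.14 for the ubiquitin enzymes, and -0.13 for all named genes. Over all probes it correlated with the other arrays of its age at r = -0.365. Without it, 9 of the 43 genes passed at 5 weeks: PSMC5, PSME3, PSMF1, UBE2A, UBE2D3, USP12-like, USP14, USP3 and USP8. In that fit 16.6% of named genes passed at 5 weeks and 10.8% as the mean. With arrays weighted by how well they fitted, 2 proteasome and 6 ubiquitin enzyme genes passed at 5 weeks, against 10.2% of named genes. In that fit 6 and 5 passed at 9 weeks, against 26.3%, and 3 and 1 at 11 weeks, against 8.8%. With a dye effect for each age and round, PSME4 and UBE2D3 passed at 7 weeks, against 7.23% of named genes, and PSMA6, PSMD3, USP16 and USP24 at 9 weeks, against 5.75%. At 1 and 3 weeks the medians followed the dye, also over all named genes. At 1 week the proteasome median was above 0 on 5 of 6 arrays with HG on 555 and on 1 of 6 with HG on 647, beside 6 of 6 and 1 of 6 for all named genes and 5 of 6 and 0 of 6 for the ubiquitin enzymes. At 3 weeks these counts were 5 of 5 and 1 of 5 for the proteasome, 4 of 5 and 0 of 5 for all named genes, and 3 of 5 and 2 of 5 for the ubiquitin enzymes. The arrays of both orientations enter each age in equal number.

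**Figure D5:**
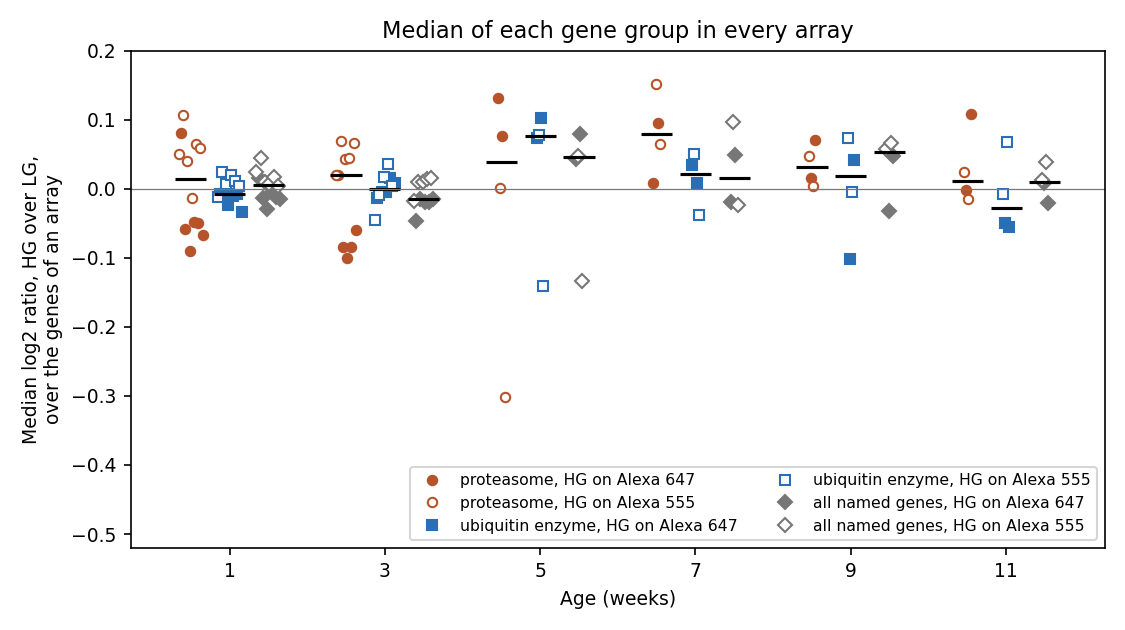
Median log2 ratio of HG over LG over the genes of each group (vertical axis) in every array, by age in weeks (horizontal axis), filled where HG carried Alexa 647 and open where it carried Alexa 555, with the median over arrays as a black line. The 3 groups overlap at every age, and the lowest points, -0.30, -0.14 and -0.13 at 5 weeks, belong to replicate 4.

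Whether the line difference depended on age was asked with an F test over the 6 ages and with the mean of 5 to 11 weeks minus that of 1 and 3 weeks. The F test called 0 of the 43 genes, against 1.73% of named genes. By the unadjusted p, PSME3 (p = 0.0426), PSME4 (p = 0.0244), the first UBE2D3 probe (p = 0.0162) and USP9Y (p = 0.0189) were under 0.05 in limma's F test, as were 7.01% of all probes. The later minus earlier contrast called 0 of the 43 by limma, against 1.32%, with 2 proteasome and 2 ubiquitin enzyme probes at an unadjusted p under 0.05 (8.58% of all probes). Its fitted values ran from -0.14 for PSMA6 to 0.13 for PSMC3 in the proteasome and from -0.15 for USP24 to 0.10 for USP25 in the ubiquitin enzymes. The median size of a proteasome gene's ratio was 0.026, 0.027, 0.089, 0.097, 0.15 and 0.055 in the order of the ages, beside 0.024, 0.022, 0.085, 0.088, 0.10 and 0.062 over all named genes. Thus the scatter of these genes grew after 3 weeks as it did on the array as a whole. From 5 weeks on, groups held 4 arrays instead of 10 or 12. The log2 ratios of a single array had an SD of 0.15 to 0.36 at 1 and 3 weeks. It was 0.41 to 0.61 at 5 and 7 weeks and 0.26 to 0.38 at 9 and 11 weeks. The part of group size or of array spread in the scatter was not tested.

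For 11 genes more than 1 probe was tested, which shows how far probes of a gene differed. The probes had opposite signs for 5, 5, 7, 6, 8 and 4 of these genes in the order of the ages, and for 7 as the mean. The median gap between the probes of a gene was 0.062 on the log2 scale in the mean and up to 0.22 at a single age (9 weeks).

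The ratios of several members leaned to one dye whichever line carried it. A dye effect passed the threshold for 19 of 57 member probes (33.3%) of 16 genes, against 39.4% of all probes. It was towards 647 for 10 probes and towards 555 for 9. The largest were PSMD1 (0.46), USP6NL (0.37) and PSMA6 (0.34). For PSMA6 the deposited ratio was above 1 on 15 of 18 arrays with HG on 647 and on 16 of 16 with HG on 555. PSMD1 was above 1 on 19 of 19 and 18 of 19.

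Read as ratios already turned to HG over LG, these members would be the ones that differ. PSMD1 would then have a mean log2 ratio of 0.54, PSMA6 of 0.37 and PSMA1 of 0.27, and PSMD2 one of -0.064. That reading would call 7 of 22 proteasome genes and 12 of 21 ubiquitin enzyme genes as the mean over the ages, against 52.3% of named genes. At 1 and 3 weeks it would call 5 and 3 proteasome genes and 6 and 2 ubiquitin enzyme genes, against 22.1% and 11.4%. At 5, 7, 9 and 11 weeks it would call 52.9%, 39.0%, 11.4% and 19.7% of named genes, and 23.4% in the later minus earlier contrast.

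Other genes of the pathway were looked at from a list of ubiquitin ligase subunits, ubiquitin-like proteins and further deubiquitinases. As the mean over the ages, where 4.37% of all named genes passed, 1 of the 29 tested did and was lower in HG: SKP1, the adaptor of cullin ligases, at -0.20 ± 0.0528 (SE; limma's adjusted p = 0.0177). The median of the 29 was 0.019, and 19 were above 0. At each age 0 of them passed in limma, with 0, 0, 5, 3, 4 and 1 of 34 probes at an unadjusted p under 0.05. Of 15 cytosolic and mitochondrial chaperones, which fold proteins or hand them to the proteasome, 1 passed as the mean, HSPD1, through 1 of its probes (0.20). Averaged over its tested probes, HSPD1 was not above 0.0605, the highest value of the 15 genes (BAG3). Their median was 0.0038. Of 30 ribosomal protein genes, 2 passed as the mean, RPL23 (-0.11) and RPS20 (-0.11), with a median of -0.044. Antigen presentation uses peptides cut by the proteasome. Of 15 genes of antigen presentation and the interferon response, 4 passed as the mean, with a median of 0.071, 4 at 5 weeks, 3 at 7 weeks and 0 at the other ages in limma, where 0.566% of all named genes passed at 5 weeks and 2.92% at 7 weeks. Those that passed as the mean were B2M (0.24), OASL (0.22, through 1 of its probes) and GBP1 (0.18), beside LY6E, for which both probes passed at 0.31 and 0.39. These genes outside the ubiquitin list were named after their values were seen.

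Of the 37 genes that were not tested, USP12 and USP2 had no value on any array. The others had values on too few arrays in at least 1 age. PSMB5, a beta subunit with a cutting site, had a probe with 23 values, of which 4 were above 0, with a median turned log2 ratio of -0.39. Its other probe had 8 values, 4 of them above 0, with a median of 0.027. PSMD6, a lid subunit, had 35 values, 23 above 0, with a median of 0.039. UBE2J1, an E2 of the endoplasmic reticulum, had 35 values, 18 above 0, with a median of 0.0026. UBA3, the catalytic E1 subunit for NEDD8, had 28 values with 14 above 0 on one probe and 18 values with 7 above 0 on the other. These values carry no test, and the dye effect was not taken off.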

How the data were processed

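Liver RNA of HG and LG chickens was measured on 40 arrays at 6 ages. Per the series design text, a first round used 4 birds per line and age, and a second round at 1 and 3 weeks used 4 of those birds again beside 4 others. The text numbers neither round, and replicates 5 to 12 were taken as the second. Since arrays of the same bird are not marked, each array counted once, and p-values measure the spread between arrays. The authors deposited, for every array, 1 dye ratio on a linear scale per spot, judged from the values. Array medians between 0.966 and 1.015 show that the authors' ratios were already centred. How they were centred and filtered, and the numerator dye, are not given in the sources used here. No further normalization was applied.

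Ratios were put on the log2 scale and averaged where spots carried the same clone record (18547 probes). Genes were named by GEO's annotation of the array, in which some symbols may be outdated. The gene ID of 79 of the 80 genes, all but UBE2V1, was found with the same symbol in the RefSeq gene table. limma 3.58.1 in R 4.3.3 (lmFit, eBayes) fitted a line effect per age, coded by the dye that HG carried, and 1 dye effect over all ages to the 6432 probes valued on 75% or more of the arrays at each age. Contrasts were each age, the mean of the ages, and 5 to 11 weeks minus 1 and 3 weeks. An F test asked for unequal effects. The tests were two-sided with Benjamini-Hochberg adjustment and a threshold of 0.05. The fit was also run on simulated independent arrays with 1 spread per probe for all ages, taken from the fit to these data. That simulation cannot test the p-values where the spread differed between ages or birds were used again.

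All 40 arrays were planned for the fit. The pair with the same values at 3 weeks was left out after it was found, and fits with both or either kept are alternatives chosen after seeing the data. The other alternatives were no dye effect or one per age and round, separate fits per age, array weights, centring, scaling to the same median absolute deviation (MAD), other filters, averaging by symbol, a replicate block, either round alone, ratios not turned, and arrays left out.

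The genes, lists and tests were chosen with earlier results of these data known. Every gene that meets the symbol rule could be named. Single-array values were given for those past the threshold and, in each role group with fewer than 6 such genes, for the 2 with the smallest unadjusted p over the contrasts.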

Additional observations from a re-analysis of the deposited data

Results flagged for a closer look

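In 5 of 60 groups of 4 arrays, an array lay so far from the others that its gap to the nearest, divided by the range, was over 0.829, the 95% critical value of Dixon's test. Chance alone gives about 1 such group in 20. The groups checked were the named genes and the family medians at 5 to 11 weeks. PSMD2 made up 3 of the 5. At 5 weeks replicate 1 was the highest, with log2 ratios of 0.46 against 0.10 to 0.15 in the others (gap over range 0.842). At 7 weeks replicate 2 was the lowest, at -0.54 against 0.59 to 0.79 (0.852), and without it PSMD2 passed the threshold at that age. The share of named genes that passed without it is not given here. At 11 weeks replicate 2 was the lowest, at -0.26 against 0.43 to 0.55 (0.853). PSMD11 at 9 weeks had its highest value in replicate 4, with 0.44 against 0.038 to 0.091 (0.869). The median of the ubiquitin enzyme genes at 5 weeks was lowest in replicate 4, with -0.14 against 0.074 to 0.10 (0.884).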

How the results depend on the processing

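Over 44 results and 1252 alternative values, 908 family counts and medians and 237 values of named genes kept their direction and their side of the threshold, or moved by less than the spread between arrays. The cause of the changes below was not tested.

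With the ratios taken as already HG over LG, the proteasome genes called numbered 5, 3, 11, 7, 3 and 4 at 1, 3, 5, 7, 9 and 11 weeks, 7 as the mean, 7 in the later minus earlier contrast and 12 in the F test. The ubiquitin enzyme genes called then numbered 6, 2, 11, 12, 1, 1, 12, 7 and 12 in the same order. Of all named genes that reading called 22.1%, 11.4%, 52.9%, 39.0%, 11.4% and 19.7% at the 6 ages. It called 52.3% as the mean and 23.4% later minus earlier. For the F test of the alternative fits, the share over all genes is not given here. The proteasome medians were then 0.021, 0.045 and 0.095 at 7, 9 and 11 weeks, and those of the ubiquitin enzymes -0.024, -0.022, -0.053 and -0.11 at 1, 3, 9 and 11 weeks. In that reading signs turned for PSMD2 (-0.064), UBE2D3 (-0.061 at 7 weeks), USP16 (-0.19 at 9 weeks), PSMA6 (0.050 at 9 weeks) and PSMA7 (-0.16 at 7 weeks).

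With array weights, the proteasome genes called numbered 2, 6 and 3 at 5, 9 and 11 weeks, 3 as the mean, 1 later minus earlier and 6 in the F test. The ubiquitin enzyme genes called numbered 6, 0, 5 and 1 at 5, 7, 9 and 11 weeks, 1 as the mean, 1 later minus earlier and 7 in the F test. That fit called 575, 0, 1452 and 504 of all 6432 probes at 5, 7, 9 and 11 weeks. It called 701 as the mean and 532 later minus earlier. Its share in the F test is not given here, so the F test counts cannot be set against the whole array. The proteasome median at 11 weeks was -0.030. With a dye effect for each age and round, the proteasome count was 1 at 7 weeks, 2 at 9 weeks and 2 as the mean. In that fit the ubiquitin enzyme count was 2 at 9 weeks, 1 as the mean and 1 later minus earlier. Of all 6432 probes it called 435 at 7 weeks, 329 at 9 weeks, 562 as the mean and 153 later minus earlier. The ubiquitin enzyme count at 7 weeks was 0 with centred arrays, with MAD scaling, in separate fits and with spots averaged by symbol. MAD scaling called 1 at 9 weeks, USP16, in a fit that called 70 of all 6432 probes at that age. The proteasome median at 9 weeks was -0.051 with centred arrays, -0.046 by symbol and 0.055 with a value needed on every array. The proteasome count of the mean was 0 with a value needed on every array, where PSMD2 was not tested. Under the looser filter it was 2 (PSMD1 and PSMD2), in a fit that called 325 of all its probes as the mean. Using the first round only, which left 2 arrays at 3 weeks, the ubiquitin enzyme median there was -0.054.

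Replicate numbers do not mark shared birds between ages. A replicate block gave a consensus correlation of 0.136 and left 0 proteasome genes called as the mean, with PSMD2 at 0.19 (limma's adjusted p = 0.109). It changed no other family count by over 1.5 times. Without replicates 1 and 2 at 3 weeks and replicate 4 at 5 weeks, which ran against their orientation, 3 proteasome and 6 ubiquitin enzyme genes were called at 5 weeks, 2 ubiquitin enzyme genes as the mean, 1 proteasome gene later minus earlier, and 1 ubiquitin enzyme gene in the F test. That fit called 950 of all 6432 probes at 5 weeks, 677 as the mean and 168 later minus earlier. With both or either of the 3-week arrays of the same values kept, no result crossed the threshold or turned its sign.

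Leaving out each array in turn, the proteasome genes called ranged from 0 to 3 at 5 weeks (3 without replicate 4), 0 to 1 at 7 weeks (PSMA7 without replicate 1, PSMD2 without replicate 2), 1 to 2 as the mean (PSME4 added without replicate 4 at 5 weeks) and 0 to 1 later minus earlier (PSME4, same array). The ubiquitin enzyme genes called ranged from 0 to 6 at 5 weeks (6 without replicate 4), 0 to 2 at 7 weeks (2 without replicate 1, 0 without replicate 2, 3 or 4), 0 to 2 as the mean (2 without replicate 4 at 5 weeks or replicate 1 at 7 weeks) and 0 to 1 in the F test (UBE2D3 without replicate 4 at 5 weeks). Without replicate 4 at 5 weeks, 16.6% of named genes passed at that age and 10.8% as the mean. Without replicate 1 at 7 weeks, 6.0% passed at that age and 8.65% as the mean. For the other arrays left out and the other contrasts the share is not given here. The medians ranged from 0.024 to 0.11 (proteasome, 7 weeks), -0.027 to 0.071 (ubiquitin enzymes, 7 weeks), -0.0061 to 0.041 (proteasome, 9 weeks) and -0.046 to 0.037 (ubiquitin enzymes, 11 weeks). Groups of 4 arrays from 5 weeks on, a filter that left 37 of 80 genes untested and an unstated dye order limit these results.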
